A study of Homo sapiens with 20 samples.

Results

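NF-kappaB is a family of transcription factors held in check by inhibitor proteins, and 10 genes of this core were followed here: the subunits RELA, RELB, REL, NFKB1 and NFKB2, the inhibitors NFKBIA, NFKBIE and TNFAIP3, and the IkappaB kinases CHUK and IKBKB. Every probe set whose annotation named 1 of these genes and no other was taken, which gave 21 probe sets among the 38070 of the array that name a single gene and the 50441 with values. Of the 21, 14 (from 8 genes) had a mean log2 level above 4.5 in at least 1 of the 4 groups of arrays and were tested, and 7 did not. RELB and NFKB2 were the 2 genes with no probe set above that level. A level here is the log2 brightness of a probe set after GCRMA, which removes estimated background and brings all arrays to 1 distribution, so levels of different probe sets are not compared.

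The study asked how the RNA-binding protein ZFP36 (tristetraprolin, TTP) alters transcript levels in HEK293 cells, a human embryonic kidney line. It holds 20 Affymetrix Human Genome U133 Plus 2.0 arrays in 4 groups of 5. All cells were Flp-In T-REx HEK293, in which a transgene stays off until doxycycline is added. Induced cells were EGFP-ZFP36 cells given 1 µg/ml doxycycline for 16 h, and mock cells were the same EGFP-ZFP36 line given water. Parental cells, which carry no EGFP-ZFP36, received doxycycline or water for the same time, and the latter are called parental vehicle here. By the study's methods each sample pooled cells from several flasks, the induced cells were sorted for green fluorescence and the mock cells for its absence, and cultures of the treated EGFP-ZFP36 cells were sparser and had more rounded and detached cells. Each group was collected on 5 different days. In such bulk samples, a lower share of cells with a transcript and less of it per cell cannot be told apart.

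Over all probe sets, arrays of a group correlated at 0.994 to 0.999, and at most 1.66% of the values above 5 were identical in any pair. With 36.6% of all values at the lowest level, such correlations cannot exclude an outlying array. The single ZFP36 probe set read 4.56 to 5.78 on the induced arrays and 4.85 to 5.92 on the mock arrays, with means of 5.42 ± 0.49 and 5.36 ± 0.43 (SD, n = 5 each). Its position relative to the construct was not known, so it does not check the induction. All 6 leukocyte markers and all 6 fibroblast and endothelial markers with a probe set were below 4.5 in every group. Of 5 HEK293 traits listed, 3 had a probe set: NEFL, NEFM and PAX2. NEFL was above 4.5 in every group and NEFM in all but mock cells. PAX2 was above it in induced cells alone, with a mean of 4.86 against 2.77 in mock cells, and was below it in both parental groups. NEFM read 5.81 and 3.87 in induced and mock cells against 12.3 in both parental groups, so the lines differed before induction. Spiked poly-A controls read 0.36 higher (log2) in induced than in mock arrays (exact permutation p = 0.0238, two-sided), and hybridization controls 0.12 higher (exact permutation p = 0.143). The actin 3′ signal exceeded the 5′ signal by 1.31 in induced and 1.52 in mock arrays (difference −0.21, exact permutation p = 0.0476, two-sided), a measure of RNA integrity and labelling whose part in the results was not tested. The parental vehicle arrays had the widest spread of both measures, 7.68 to 9.22 for the poly-A controls and 1.14 to 2.18 for actin.

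In unstimulated cells, dimers of the 5 subunits lie in the cytoplasm, bound to IkappaB proteins such as those encoded by NFKBIA and NFKBIE. Receptors for cytokines and danger signals activate the IkappaB kinase complex, whose catalytic subunits are the products of CHUK (IKKalpha) and IKBKB (IKKbeta), and the phosphorylated inhibitor is ubiquitinated and degraded. The released dimers bind kappaB motifs, and among their targets are NFKBIA and TNFAIP3, which close a negative feedback loop. TNFAIP3 (A20) edits ubiquitin chains on signalling proteins upstream of the kinases. ZFP36 binds AU-rich elements in the 3′ UTR of cytokine and other mRNAs and brings about their decay.

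The kappaB motif was searched in the 250 bases upstream of annotated starts, on both strands, because several of these genes are known to answer to NF-kappaB. RefSeq promoter entries on GRCh38.p14 were held for 7 of the 10 genes. The 10-base kappaB consensus was present for 5 of them, namely REL, NFKB1, NFKB2, NFKBIA and TNFAIP3, and these letters were not in the searched window of RELA or CHUK. The 7 genes had 11 entries between them, since several have more than 1 annotated start, and 6 of the 11 held a match, as did 9.96% of all 35116 entries searched. The windows below show the matches of the 4 such genes that were measured above 4.5, in capitals and in the direction of transcription.
REL: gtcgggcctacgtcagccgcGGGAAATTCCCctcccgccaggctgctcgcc
NFKB1: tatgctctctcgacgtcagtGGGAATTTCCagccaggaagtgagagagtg
NFKBIA: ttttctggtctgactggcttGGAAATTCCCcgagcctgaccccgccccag
TNFAIP3: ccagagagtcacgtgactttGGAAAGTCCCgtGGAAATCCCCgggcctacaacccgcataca
The REL window is chr2:60881507-60881557 on the plus strand, and its capitals hold 2 matches that overlap. The NFKB1 window is chr4:102501290-102501339 on the plus strand. The NFKBIA window is chr14:35404801-35404850 on the minus strand, and its match starts 81 bases upstream of the start. The TNFAIP3 window is chr6:137867172-137867233 on the plus strand and holds 2 separate matches, 67 and 55 bases upstream.

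The same study mapped binding sites of a FLAG/HA-tagged ZFP36, in a HEK293 line other than the EGFP-ZFP36 line of these arrays. Those sites were read for their sequence alone, to show where ZFP36 could contact these transcripts. The part of the site list used here holds 1985 sites, 1026 of them in 3′ UTRs. It has 1 site in a member, TNFAIP3, and 12 sites in 9 other genes of the pathway lists described further on. Sites of the remaining members were not analysed here, and a gene without a site in this part may have one in the full list. The TNFAIP3 site (chr6:138203435-138203456, hg19, plus strand, coordinates as the list gives them) is shown with sites of 2 pathway genes that were called lower after induction, TAB2 (chr6:149731536-149731559, plus strand) and TNFRSF21 (chr6:47200141-47200165, minus strand).
TNFAIP3: taattcactTTATTTATTtta
TAB2: atTATTttcttaTATTtctatat
TNFRSF21: cactttaaATTTActtaacttacc
Capitals mark the longest AU-rich element found in each: the nonamer TTATTTATT, the half-site TATT and the pentamer ATTTA. The nonamer was in 2.48% of the 121 listed 3′ UTR sites of the same length as the TNFAIP3 site and in 5.17% of all 1026. TATT was in 77.9% and ATTTA in 42.5% of the 1026. A second listed 3′ UTR site of TAB2 holds none of the 3 elements. Of the 9 pathway genes with a listed site, TAB2 and TNFRSF21 were the 2 called lower and none was called higher, while TNIP2, NKIRAS1, IER3, SOD2 and TAB3 were tested and not called and CXCL1 and CXCL2 had no tested probe set. Over all probe sets 21.8% were called lower and 22.1% higher, so no link between a site and a lower level was read from so few genes.

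The first comparison asked which NF-kappaB transcripts differed between induced and mock cells. CHUK and NFKB1 were lower in induced cells, and RELA and IKBKB were higher, each by 1.54-fold to 3.15-fold. With limma and a Bonferroni-adjusted p under 0.01 over all 18639 probe sets tested, 2 of the 14 member probe sets were called lower and 3 were called higher. Over all probe sets 21.8% were called lower and 22.1% higher, so the members' counts were close to those of the array as a whole. With arrays centred on the spiked poly-A controls, 5807 were lower and 2399 higher, against 4072 and 4126. That centring gave every tested probe set of the pathway lists the same SE, 0.18. Its calls and p-values therefore follow the size of a difference and do not measure the spread of each probe set. Induced and mock arrays did not overlap for any of the 14 member probe sets, a state that 76.9% of all probe sets shared. Of the 14, IKBKB 211027_s_at, passed the filter only through its induced mean and so had to be higher there. Of the other 13 differences 10 were above 0 and 3 below, and their median was 0.85 on the log2 scale where the median of all probe sets was 0.12. The differences of all probe sets had an SD of 1.29, and the share of them above 0 was not counted. RELA, REL and IKBKB each gave several of the 13, so these are not separate genes and no shift of the members as a set was tested. Centring on the hybridization controls moved that general median to 0.00 and centring on the poly-A controls moved it to −0.24, with every difference shifted alike.

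RELA encodes p65, the subunit that carries a transactivation domain in the commonest dimer. On probe set 201783_s_at the induced arrays read 9.93, 9.97, 9.94, 9.80 and 9.82 and the mock arrays 8.78, 8.94, 8.74, 8.88 and 8.84. Every induced array thus lay above every mock array, with a gap far wider than the spread within either group. The fitted difference was 1.06 on the log2 scale (SE 0.06, adjusted p = 4.18e-05), or 2.08-fold. The second probe set, 209878_s_at, read 6.78 to 7.34 on induced and 5.58 to 6.31 on mock arrays, a difference of 0.97 (SE 0.15) that did not pass (adjusted p = 0.866). The RELA call was lost with poly-A control centring, which gave 0.69 (adjusted p = 1), and with the replicate number as a block (adjusted p = 0.0178).

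REL encodes c-Rel, another transactivating subunit, and its 4 probe sets above 4.5 did not point the same way. On 235242_at the induced arrays read 9.19, 9.22, 8.80, 9.16 and 9.13 and the mock arrays 8.27, 8.19, 8.19, 8.32 and 8.34. The groups were apart by 0.84 (SE 0.08), but the adjusted p of 0.0131 missed the threshold. Without induced replicate 3, the lowest of its group, the difference was 0.91 and passed (adjusted p = 0.00027). Probe set 206036_s_at differed by 0.85 (SE 0.09, adjusted p = 0.0428) and 239486_at by 1.01 (SE 0.19, adjusted p = 1). On 228812_at the order was the opposite: the induced arrays read 8.60, 8.52, 8.34, 8.44 and 8.59 and the mock arrays 9.03, 8.90, 8.76, 8.98 and 8.91. That difference of −0.42 (SE 0.07, adjusted p = 1) did not pass either. The remaining REL probe set, 206035_at, stayed between 2.19 and 2.58 on all 20 arrays, at the floor of these values.

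NFKB1 encodes p105, which is processed to the p50 subunit and can itself act as an inhibitor. Its probe set 209239_at read 7.04, 7.04, 7.07, 6.87 and 7.08 on induced arrays and 7.63, 7.63, 7.63, 7.71 and 7.62 on mock arrays. The induced arrays were all lower, and the level fell by 0.62 (SE 0.05, adjusted p = 0.00347), a 1.54-fold difference. Mock replicates 1 to 3 held 1 identical value to the last deposited digit, so the mock SD of 0.04 rests on repeated values. The call was lost in 9 of the 10 fits that left out 1 array, with adjusted p-values up to 0.0237, and kept only without induced replicate 4. It was also lost with hybridization control centring (−0.74, adjusted p = 0.103), with a separate spread for each group (adjusted p = 0.267) and with the replicate number as a block (adjusted p = 0.551).

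RELB and NFKB2 encode the subunits of the non-canonical branch. The RELB probe set read 2.19 to 2.30 across all 20 arrays, and the 3 NFKB2 probe sets reached at most 3.12. These levels lie at or near the floor of 2.19 that the background correction leaves, and the exact permutation test of induced against mock gave p-values of 0.127 to 1 for them. No order of the groups was read from them.

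**Figure D1:**
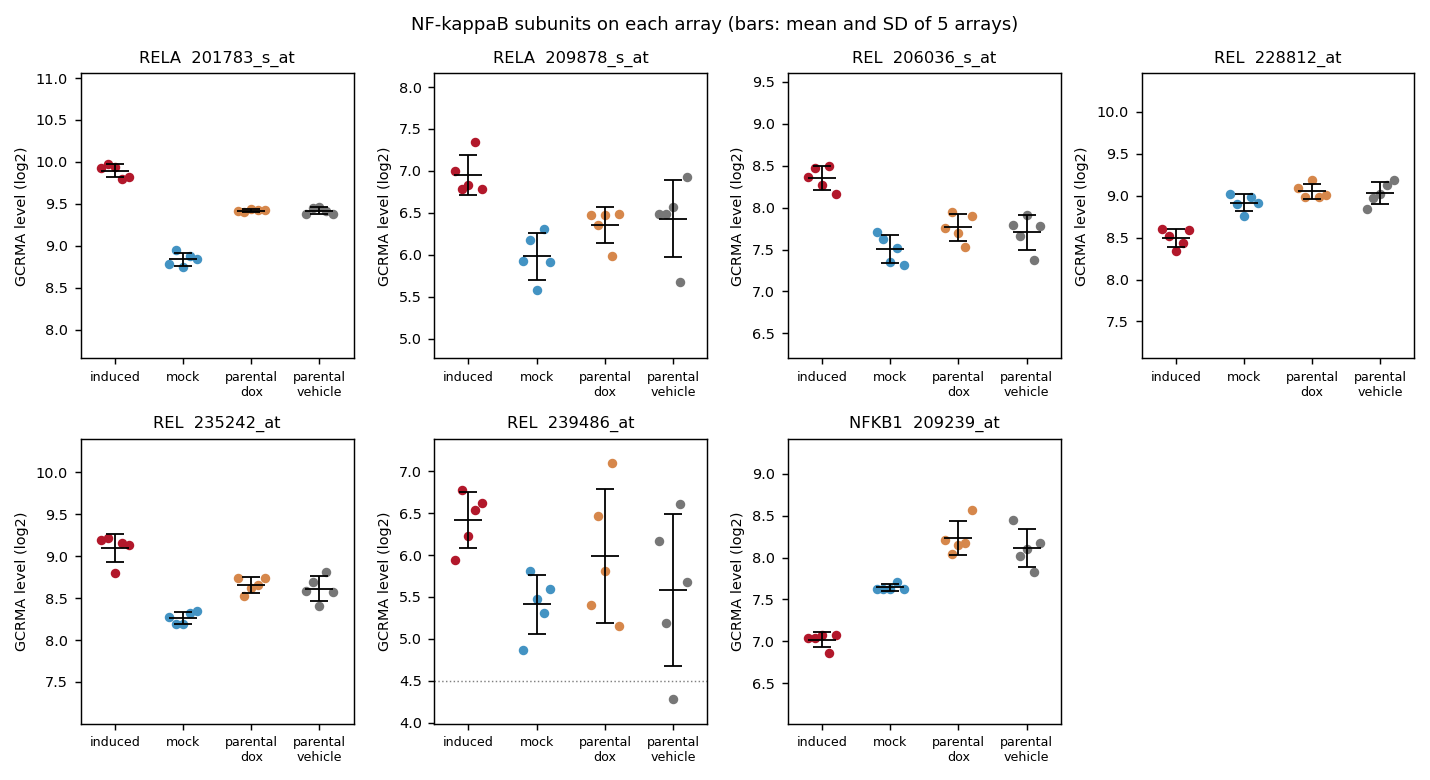
Log2 GCRMA level of the 7 tested probe sets of RELA, REL and NFKB1 on each of the 20 arrays (points), with the mean and SD of each group of 5 (bars), all panels spanning the same range on the log2 scale. Induced arrays sit above mock arrays for both RELA probe sets and for 3 of the 4 REL probe sets, and below them for REL 228812_at and NFKB1.

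Of the inhibitors, none passed the test in this comparison. All 3 with a tested probe set read higher on every induced array than on any mock array. Over all probe sets, 76.9% likewise had induced and mock arrays that did not overlap. NFKBIA encodes IkappaBalpha, an inhibitor that is rapidly resynthesized after activation. Its probe set 201502_s_at read 9.43, 9.43, 9.16, 9.55 and 9.38 on induced arrays and 8.76, 8.78, 8.65, 8.87 and 8.53 on mock arrays. The difference was 0.67 (SE 0.08, adjusted p = 0.158). Its second probe set, 231699_at, was at the floor in every group.

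NFKBIE encodes IkappaBepsilon. Probe set 203927_at read 6.48, 6.48, 6.49, 6.58 and 6.57 on induced arrays and 5.42, 5.96, 5.98, 5.39 and 5.24 on mock arrays. The mock arrays fell into a pair near 6 and 3 arrays below 5.5, and the difference of 0.92 (SE 0.14) had an adjusted p of 0.935. TNFAIP3, the member with a listed ZFP36 site in its 3′ UTR, read 6.46, 6.79, 6.39, 6.66 and 6.39 on induced arrays and 5.68, 6.11, 6.37, 6.02 and 6.15 on mock arrays. The lowest induced and the highest mock array were nearly equal, and the difference of 0.48 (SE 0.13, adjusted p = 1) did not pass. The other TNFAIP3 probe set, 202643_s_at, had its highest group mean at 3.53, the closest below the level of 4.5 among the members left out. With Benjamini-Hochberg adjustment and a threshold of 0.05, NFKBIA, NFKBIE and TNFAIP3 were all among the 11 member probe sets called higher, where 46.5% of all probe sets were. That count of 11 includes IKBKB 211027_s_at, which passed the filter only through its induced mean and so had to be higher.

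The kinases of the IkappaB complex moved in opposite directions. CHUK read 10.2, 10.4, 10.3, 9.96 and 10.5 on induced arrays and 11.6, 11.7, 11.8, 11.4 and 11.6 on mock arrays. Every induced array was lower, and the level fell by 1.36 on the log2 scale (SE 0.10, adjusted p = 0.00114), or 2.57-fold. The call held without any 1 array (adjusted p up to 0.00968), but not with a separate spread for each group (adjusted p = 0.0935) or with all 38070 single-gene probe sets in the fit (adjusted p = 0.0377).

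IKBKB was called higher on 2 probe sets, 209341_s_at and 209342_s_at, and had another above 4.5. On 209341_s_at the induced arrays read 11.3, 11.3, 11.2, 11.3 and 11.2 and the mock arrays 10.1, 10.2, 10.1, 10.2 and 10.0. These groups were more than 1 log2 unit apart with an SD of 0.06 and 0.05, and the difference was 1.14 (SE 0.05, adjusted p = 2.64e-06), or 2.20-fold. On 209342_s_at the induced arrays read 7.76, 7.90, 7.71, 7.81 and 7.83 and the mock arrays 6.26, 6.31, 5.99, 6.20 and 5.97, a difference of 1.66 (SE 0.08, adjusted p = 8.09e-06), or 3.15-fold. The third, 211027_s_at, passed the filter only through the induced group, whose mean of 4.66 was the closest above 4.5 among the members. It read 5.49, 4.51, 4.69, 4.44 and 4.16 on induced arrays and 3.53 to 3.70 on mock arrays, and the difference of 1.09 (SE 0.20, adjusted p = 1) did not pass. Its order was favoured by the filter, so nothing was read from it. Poly-A control centring ended the call of 209341_s_at (0.77, adjusted p = 0.286), and a separate spread for each group ended that of 209342_s_at (adjusted p = 0.0212).

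**Figure D2:**
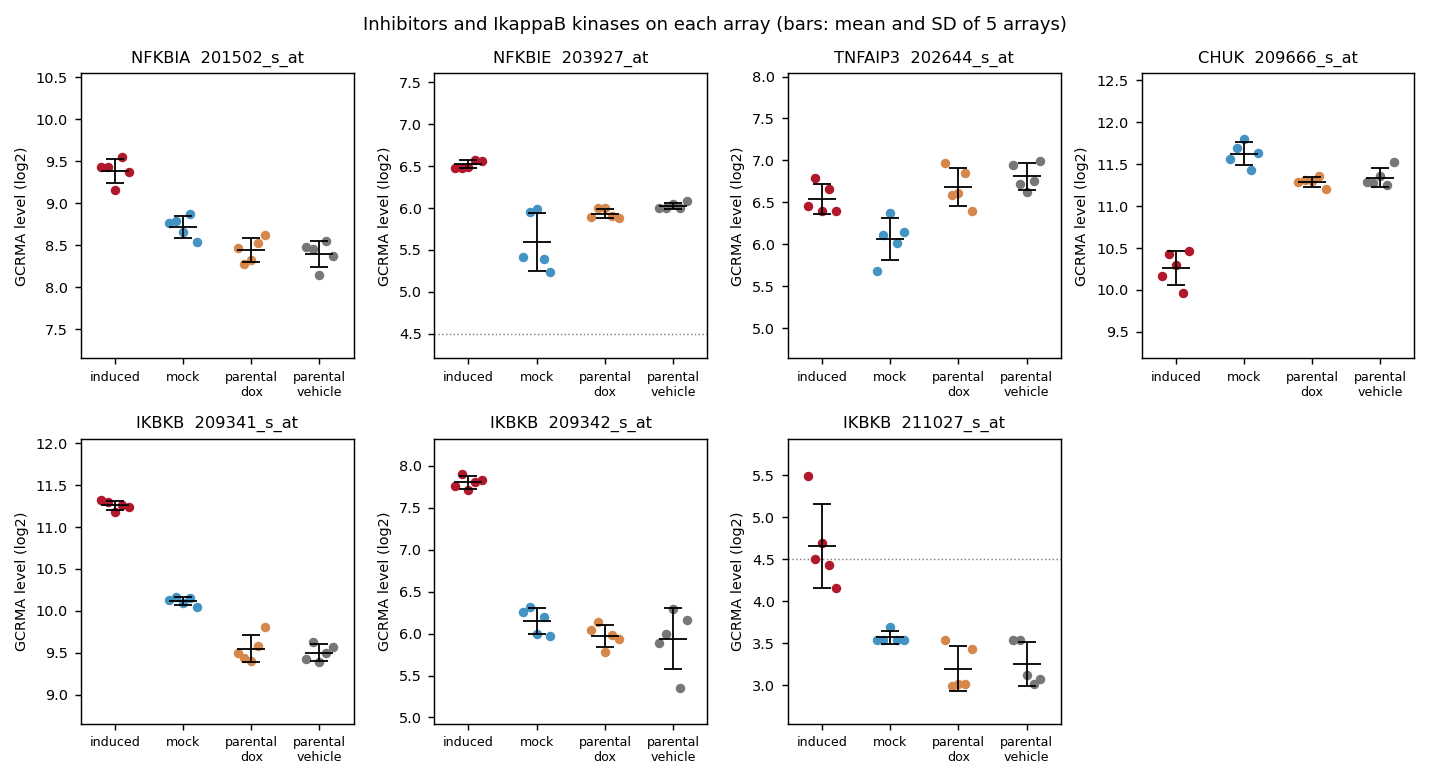
Log2 GCRMA level of the tested probe sets of NFKBIA, NFKBIE, TNFAIP3, CHUK and IKBKB on each array (points), with the mean and SD of each group of 5 (bars) and the level of 4.5 as a dotted line where a panel reaches it. CHUK is lower on the induced arrays than on all others, and IKBKB 209341_s_at and 209342_s_at are higher there than on all others. IKBKB 211027_s_at is shown only because its induced mean passed 4.5.

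Doxycycline alone was examined in the parental line, which carries no transgene. None of the 14 member probe sets was called (limma), and of all probe sets 0% were. At an unadjusted p under 0.05 the count was 0 of 14 for the members and 2.22% over all probe sets, and Benjamini-Hochberg adjustment and every other fit tried also called 0. The groups overlapped for each of the 14. The differences ran from −0.13 (SE 0.12) for TNFAIP3 to 0.40 (SE 0.48) for REL 239486_at, with a median of 0.03. CHUK read 11.2 to 11.4 with doxycycline and 11.2 to 11.5 with vehicle, a difference of −0.05 (SE 0.06). RELA 201783_s_at read 9.40 to 9.44 with doxycycline and 9.38 to 9.46 with vehicle, a difference of 0.00 (SE 0.04). IKBKB 209341_s_at differed by 0.05 (SE 0.08) and NFKB1 by 0.12 (SE 0.13). These standard errors set how small a difference could have been seen.

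The lines also differed without doxycycline, as the comparison of mock with parental vehicle cells shows. RELA was lower in the EGFP-ZFP36 line: 201783_s_at read 8.74 to 8.94 on mock arrays and 9.38 to 9.46 on parental vehicle arrays, a difference of −0.58 (SE 0.05, adjusted p = 0.00658). It was the only member probe set called, and it was called lower, as were 6.88% of all probe sets, while 10.2% were called higher. Its induced arrays, at 9.80 to 9.97, lay above both untreated groups. The call was lost whichever of the 10 arrays was left out (adjusted p from 0.0105 to 0.0469) and under both control centrings (adjusted p = 1 each). Under the centrings the difference itself did not shrink, at −0.67 with hybridization and −0.62 with poly-A controls.

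IKBKB 209341_s_at read 10.0 to 10.2 on mock and 9.39 to 9.63 on parental vehicle arrays, and its difference of 0.62 (SE 0.06) just missed the threshold (adjusted p = 0.0109). In this probe set the order was induced, mock and then the parental groups, with no overlap between the first, the second and the other 2. TNFAIP3 differed by −0.74 (SE 0.12) and NFKB1 by −0.47 (SE 0.10), each with an adjusted p of 1. Mock and parental vehicle arrays did not overlap for 6 of the 14 member probe sets, against 58.5% of all probe sets. The members' median difference was −0.19.

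NFKB1 was lowest in induced cells, then in mock cells, and highest in the parental groups, whose arrays read 8.05 to 8.57 with doxycycline and 7.83 to 8.44 with vehicle. The parental groups overlapped each other, and neither overlapped the mock arrays. TNFAIP3 had a different order: the induced arrays at 6.39 to 6.79 overlapped the parental arrays at 6.39 and above, while the mock arrays were the lowest at 5.68 to 6.37. CHUK read 11.2 to 11.5 in the parental groups, close to the mock arrays, whose lowest was 11.4.

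**Figure D3:**
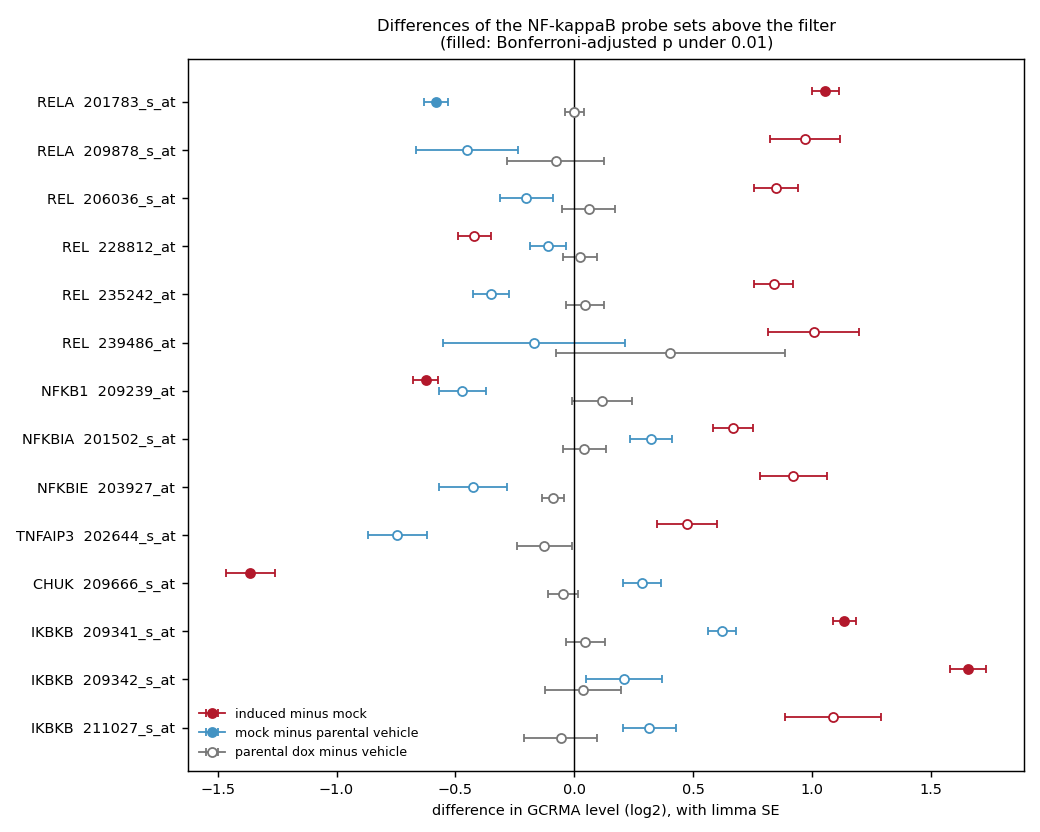
Difference in log2 level for the 14 tested member probe sets in 3 comparisons, with limma standard errors (bars); filled points passed a Bonferroni-adjusted p under 0.01. Induced minus mock runs from −1.36 (CHUK) to 1.66 (IKBKB 209342_s_at), mock minus parental vehicle from −0.74 (TNFAIP3) to 0.62 (IKBKB 209341_s_at), and parental doxycycline minus vehicle stays between −0.13 and 0.40.

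Whether doxycycline had a different effect in the 2 lines was tested directly, as an interaction over all 20 arrays. Of the 14 member probe sets 4 passed, where 39.7% of all probe sets did. For RELA 201783_s_at the difference after doxycycline was larger in the EGFP-ZFP36 line by 1.05 (SE 0.07, adjusted p = 8.18e-08). CHUK had an interaction of −1.31 (SE 0.12, adjusted p = 4.09e-05). The IKBKB probe sets had 1.09 (SE 0.10, adjusted p = 1.48e-05) for 209341_s_at and 1.62 (SE 0.18, adjusted p = 0.000588) for 209342_s_at. NFKB1, called in induced against mock cells, did not pass here (−0.74, SE 0.14, adjusted p = 0.715). NFKBIE (1.01, adjusted p = 0.0558) and REL 235242_at (0.79, adjusted p = 0.0299) came next. With hybridization control centring CHUK alone passed, where 25.9% of all probe sets did. With poly-A control centring none passed, where 14% of all did, although the values stayed about as large (RELA 1.05, CHUK −1.32, and IKBKB 1.08 and 1.61).

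Other genes of the pathway were taken from 5 lists by role, 78 genes in all, of which 72 had a probe set of their own. Of 78 tested probe sets, 14 were lower and 9 higher in induced than in mock cells, against 21.8% and 22.1% of all probe sets, and their median difference was −0.05. With poly-A control centring 28 were lower and 8 higher, but all then shared an SE of 0.18, so these counts follow the size of the differences alone. IL1RAP 210233_at, counted in the 14, and ITCH 236235_at passed the filter only through their mock means and so had to be lower. Both are in the 28. CFLAR 211317_s_at, of the known target genes, passed only through its induced mean and so had to be higher. In parental cells no probe set of any list was called after doxycycline, by limma at the same threshold.

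Among receptors and adaptors, 4 of 17 probe sets were lower and 1 was higher. The TNF receptor TNFRSF1A read 10.1 ± 0.11 (SD, n = 5) in induced and 8.04 ± 0.14 in mock cells (n = 5), a difference of 2.02 (SE 0.08, adjusted p = 1.25e-06). TNFRSF21, the death receptor whose 3′ UTR site is shown above, read 6.56 ± 0.31 in induced and 9.15 ± 0.06 in mock cells and fell by 2.59 (SE 0.13, adjusted p = 1.34e-05). TRAF3, an adaptor that restrains the non-canonical branch, fell by 1.23 (SE 0.07, adjusted p = 5.72e-05). With a separate spread for each group the TNFRSF1A call was kept and those of TNFRSF21 (adjusted p = 0.552) and TRAF3 (adjusted p = 0.0435) were lost. TRAF3 was also called higher in mock than in parental vehicle cells, by 0.69 (SE 0.06, adjusted p = 0.00619), while TNFRSF1A and TNFRSF21 were not called in that comparison. The median of this list was 0.02, and it was −0.10 and −0.35 under the hybridization and poly-A control centrings.

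Of the kinases and adaptors just upstream of the IkappaB kinases, 2 of 12 probe sets were lower and none higher, with a median of −0.04. MAP3K7 (TAK1), which phosphorylates IKKbeta, read 8.66 ± 0.25 in induced and 10.2 ± 0.11 in mock cells on 206853_s_at, and fell by 1.50 (SE 0.11, adjusted p = 0.00119). Its other probe set differed by −0.27 (SE 0.05, adjusted p = 1). TAB2, the TAK1 adaptor that binds ubiquitin chains, fell by 0.81 (SE 0.07, adjusted p = 0.00537) on 212184_s_at. Its other probe set differed by −0.72 (SE 0.12) and was not called. The TAB2 call was lost with hybridization control centring (adjusted p = 0.0269). Both calls were lost with the replicate block (adjusted p = 0.103 for MAP3K7 and 0.316 for TAB2).

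Enzymes of ubiquitin chain formation and editing were the longest list, with 7 of 31 probe sets lower and 5 higher, where 21.8% of all probe sets were lower and 22.1% higher, and a median of −0.05. UBE2N (Ubc13), the conjugating enzyme that builds the chains TAB2 binds, read 7.95 ± 0.15 in induced and 11.8 ± 0.05 in mock cells, and fell by 3.81 (SE 0.07, adjusted p = 5.99e-10). The deubiquitinase CYLD fell by 1.72 (SE 0.07, adjusted p = 1.64e-06) on 39582_at and was called on 3 of its 4 probe sets. In mock against parental vehicle cells, CYLD 39582_at was called higher by 1.50 (SE 0.09, adjusted p = 9.86e-05) and 213295_at by 1.47 (SE 0.07, adjusted p = 7.46e-06). CYLD 221905_at differed there by 1.60 (SE 0.18, adjusted p = 0.0637) and 221903_s_at by −0.003, neither called. The fall on the 3 called probe sets was thus measured from a mock mean above the parental vehicle mean. FBXW11, an F-box protein that recognizes phosphorylated IkappaB, fell by 2.17 (SE 0.07, adjusted p = 2.23e-07) on 1 probe set and differed by −0.28 (adjusted p = 1) on the other.

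The following 4 genes were chosen after their values were seen. BTRC, the paralogue of FBXW11, was higher on all 3 of its probe sets, by 2.10, 1.47 and 1.04 (adjusted p from 0.000107 to 0.00845), and none of these calls held with a separate spread for each group (adjusted p from 0.0391 to 1). RBCK1 (HOIL-1), a subunit of the complex that builds linear ubiquitin chains, was higher by 1.56 (SE 0.06, adjusted p = 1.79e-06) on 221827_at and differed by −0.09 (adjusted p = 1) on the other probe set. TNIP1, a binding partner of A20, was higher by 1.77 (SE 0.07, adjusted p = 1.96e-06). RNF11, another component of the A20 complex, fell by 2.32 (SE 0.10, adjusted p = 2.78e-06).

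The list of other inhibitors and IkappaB-like proteins had 2 of 9 probe sets higher and none lower. Its median of −0.53 turned to 0.80 with 1 probe set per gene and to 0.14 with a filter at 6, and the hybridization and poly-A control centrings called 2 and 4 lower. COMMD1 and PDLIM2, both known to promote the degradation of RELA protein, were the 2 called: COMMD1 was higher by 1.66 (SE 0.06, adjusted p = 9.29e-07) and PDLIM2 by 0.95 (SE 0.08, adjusted p = 0.00238). Among known NF-kappaB target genes only 9 probe sets of 7 genes were above 4.5, out of 34 probe sets for 19 genes, and their median was −0.09. The proteoglycan SDC4 fell by 1.79 (SE 0.09, adjusted p = 2.77e-05), and the interferon regulatory factor IRF1 was higher by 1.18 (SE 0.07, adjusted p = 0.000183). The IRF1 and PDLIM2 calls were lost with poly-A control centring (adjusted p = 0.0878 and 1) and with the replicate block (adjusted p = 0.0801 and 0.0529).

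**Figure D4:**
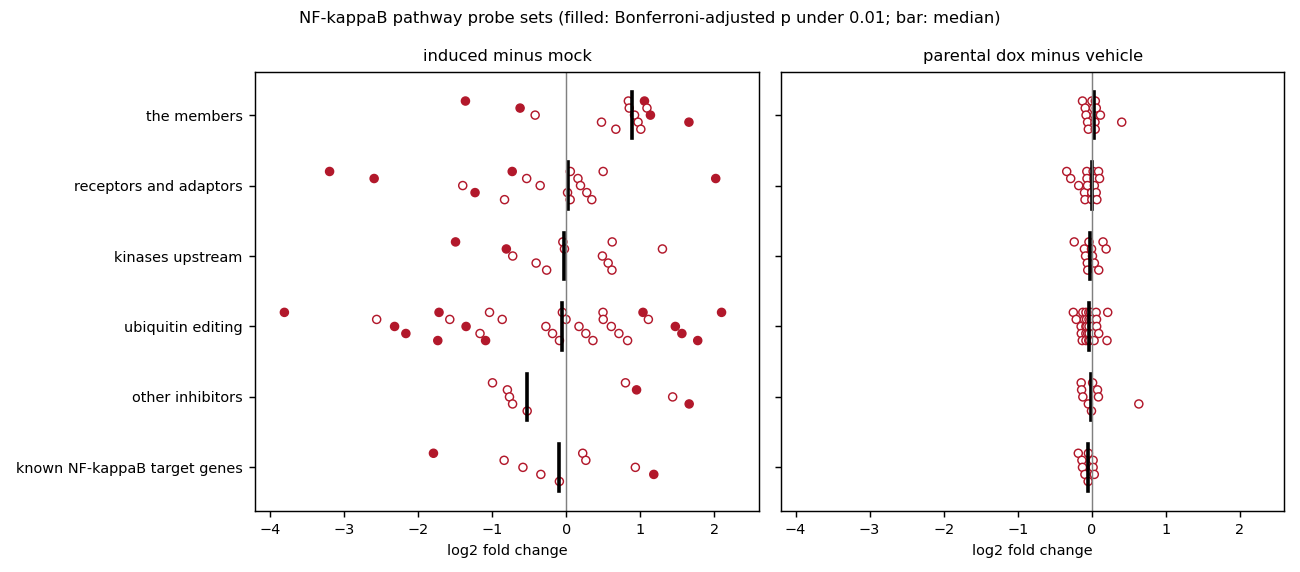
Log2 fold change of each tested probe set of the members and of the 5 pathway lists, for induced minus mock (left) and parental doxycycline minus vehicle (right), with the median of each list as a bar and filled points for a Bonferroni-adjusted p under 0.01. Filled points lie on both sides of 0 on the left and there are none on the right.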

How the data were processed

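RNA of 20 samples was hybridized singly to Affymetrix U133 Plus 2.0 arrays. GCRMA (no version stated) was run by the authors, and the deposited log2 levels have a floor at 2.19. Gene names came from the platform annotation. Of 50441 probe sets, 38070 name 1 gene, 1423 several and 10886 none, and 62 are controls. Following the methods, those whose mean exceeded 4.5 in some group entered the fits (18639). Arrays were grouped by their labels. In R 4.3.3, limma 3.58.1 (lmFit, eBayes) fitted each comparison on its 10 arrays, the interaction on all 20, and a Bonferroni-adjusted p under 0.01 was a call. The code was tested on simulated data. Exact permutation tests (two-sided, smallest p 0.00794) covered single values outside the fit. Named were the 10 members, up to 3 called genes a list with the smallest p, and ZFP36; BTRC, RBCK1, TNIP1 and RNF11 were added after their values were seen. The members and lists were chosen with earlier results of these data known. Alternatives were control centring, other filters, 1 probe set per gene, a separate spread per group, all arrays in 1 model, a replicate block, Benjamini-Hochberg adjustment and leaving out arrays. Those on the pathway lists were chosen after seeing the data. The number of arrays limits the precision. Python 3.11.15 with pandas 2.3.3, scipy 1.17.1 and matplotlib 3.10.9 made tables and figures.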

Additional observations from a re-analysis of the deposited data

Results flagged for a closer look

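Among 60 sets of 5 arrays (the 14 tested member probe sets and ZFP36 in 4 groups), 6 held 1 array far from the other 4 by Dixon's criterion, where chance gives about 1 in 20. For NFKB1 these were induced replicate 4, the lowest at 6.87 (nearest 7.04), and mock replicate 4, the highest at 7.71 above 4 arrays at 7.62 to 7.63. REL 235242_at had its lowest induced array in replicate 3, at 8.80. RELA 209878_s_at had its lowest parental doxycycline array in replicate 4, at 5.99. IKBKB 211027_s_at had its highest mock array in replicate 3, at 3.70, where the other 4 read 3.53 or 3.54. ZFP36 had its lowest induced array in replicate 3, at 4.56.

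By the limma interaction, the doxycycline difference depended on the line for 4 of the 14 member probe sets and for 39.7% of all. The 4 were RELA 201783_s_at (1.05), CHUK (−1.31), IKBKB 209341_s_at (1.09) and IKBKB 209342_s_at (1.62).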

How the results depend on the processing

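The direction of the 5 member calls in induced against mock cells was the same under all alternatives, but these could not have reversed it. Most left the fitted difference unchanged, and leaving out 1 array cannot reverse groups that do not overlap. Centring shifted every difference by at most 0.36, against 0.62 for the smallest of the 5. In that comparison 2 member probe sets were lower and 3 higher. The lower count was 1 with hybridization control centring (23.1% of all probe sets), no filter (7.86%), the replicate block (12.8%) and all 20 arrays in 1 model (25.8%). It was 0 with a separate spread per group (9.67%). The higher count was 11 with Benjamini-Hochberg adjustment (46.5%), 1 with poly-A control centring (12.9%) and 7 with all 20 arrays (27.3%). IKBKB 211027_s_at, counted in that 11 and in the 13 interaction calls given below, passed the filter only through its induced mean. Leaving out 1 array gave 1 to 2 lower (18.6% to 20.1% of all) and 3 to 4 higher (17.8% to 19.5%). Over all probe sets the lower and higher counts (4072 and 4126) became 7258 and 8675 with Benjamini-Hochberg, 1802 and 1926 with a separate spread and 2388 and 1964 with the block. The 14 lower and 9 higher probe sets of the pathway lists became 34 and 29 with Benjamini-Hochberg, 8 and 5 with the block, 6 and 4 with a separate spread; 28 were lower with poly-A centring, 9 lower with 1 probe set per gene and 17 higher with all 20 arrays. Leaving out 1 array gave 11 to 13 lower and 7 to 11 higher. In mock against parental vehicle cells the 1 lower call was joined by 4 others with Benjamini-Hochberg (5, against 33.2% of all probe sets). The lower count became 0 with hybridization (4.83% of all) and poly-A centring (2.21%). It was also 0 with no filter (2.11%), the block (1.44%) and a separate spread (2.44%). Without any 1 array it was 0, where 4.57% to 6.57% of all were lower. The higher count of 0 became 4 with Benjamini-Hochberg (37.4% of all). It became 1 with a filter at 6 (11.8%), 1 probe set per gene (13.1%) and all 20 arrays (16%), IKBKB 209341_s_at in these last 3. The 4 interaction calls became 13 with Benjamini-Hochberg (77.6% of all), 1 with hybridization (25.9%) and 0 with poly-A control centring (14%), and 4 to 5 without 1 array; a separate spread was not run for it. REL 239486_at (−0.17 in mock against parental vehicle cells) ranged from −0.495 without parental vehicle replicate 3 to 0.0872 without replicate 4. Over all probe sets, 1225 were lower in that comparison without parental vehicle replicate 4, and 852 to 977 without any other array. With the replicate number as a block, RELA 201783_s_at (adjusted p = 0.0178) and NFKB1 (0.551) lost their calls in induced against mock cells and IKBKB 209342_s_at (0.0475) its interaction. The methods describe pairs of treated and untreated cells, but neither they nor the labels say that a number marks a pair or a shared day, and same-numbered arrays deviated together with correlations of 0.01 to 0.21 for induced and mock and −0.19 to 0.38 for the parental groups, so the numbers were not taken to pair the arrays. Probe sets near the floor of 2.19, RELB and NFKB2 among them, cannot show a difference on these arrays.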
